A study of Mus musculus with 6 samples.

Results

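Retnla and 6 further genes used as marks of alternative activation in mouse macrophages (Arg1, Chil3, Chil4, Ear2, Rnase2a and Tgm2) were followed across 3 subsets of dermal macrophages. The genes were taken as a list, and the brightest probe set with exactly 1 gene symbol stood for each. Of the 7 listed genes, 6 were measured in this way, among 22180 genes in all, each by a single probe set. Ear2 was on no such probe set and was not analysed here. The cells had been sorted from digested ear skin of C57Bl/6 mice aged 2 weeks, all of genotype Cx3cr1+/gfp. In these mice the gene of green fluorescent protein replaces 1 copy of Cx3cr1, the fractalkine receptor gene, so the cells of every subset keep a single working copy. The subsets were CX3CR1high, CX3CR1int (intermediate) and CX3CR1low cells, with 2 arrays each, and a sample pooled the skin of 4 mice. The samples of a subset came from 2 independent litters, and no wild-type mice and no cells treated with interleukin 4 were among them.

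Alternative activation is the state that macrophages take up when interleukin 4 or interleukin 13 binds a receptor containing the chain Il4ra and activates the transcription factor Stat6. In mice its best known products are Retnla, a small secreted cysteine-rich protein of the resistin family, the chitinase-like lectins Chil3 and Chil4, and Arg1, which splits arginine into ornithine and urea. Ear2 and Rnase2a encode eosinophil-associated ribonucleases, which alternatively activated macrophages of mice can also make. Tgm2 encodes tissue transglutaminase, an enzyme that cross-links proteins. The response is tied to helminth infection, allergy, wound repair and the tissue residence of macrophages, and single marks of it can be expressed without the others.

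The sequence in front of the Retnla gene is shown because this gene had the largest difference between subsets among the 6. It is set beside those of Chil3 and Chil4, 2 genes of the same response whose signals were dim. Each line gives the 250 bases before the annotated start, read 5′ to 3′ on the strand of the gene, from RefSeq on GRCm38.p6. Capitals mark matches to TTC and GAA with 4 or 3 bases of any kind between them, the palindromes that STAT proteins bind, Stat6 favouring the longer spacer, and to the TATA box letters TATAAA on either strand. Retnla lies at chr16:48842359-48842608 on the plus strand, Chil3 at chr3:106167565-106167814 and Chil4 at chr3:106219480-106219729, both on the minus strand.
Retnla: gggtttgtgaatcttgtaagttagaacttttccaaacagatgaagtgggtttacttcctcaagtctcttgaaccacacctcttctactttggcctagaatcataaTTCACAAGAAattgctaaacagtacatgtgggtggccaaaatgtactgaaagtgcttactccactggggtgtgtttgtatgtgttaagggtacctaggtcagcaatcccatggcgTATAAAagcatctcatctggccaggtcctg
Chil3: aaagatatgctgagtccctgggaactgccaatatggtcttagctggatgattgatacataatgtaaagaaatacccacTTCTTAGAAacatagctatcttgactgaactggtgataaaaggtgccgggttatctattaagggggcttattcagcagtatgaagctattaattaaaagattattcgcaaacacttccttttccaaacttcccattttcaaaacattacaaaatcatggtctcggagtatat
Chil4: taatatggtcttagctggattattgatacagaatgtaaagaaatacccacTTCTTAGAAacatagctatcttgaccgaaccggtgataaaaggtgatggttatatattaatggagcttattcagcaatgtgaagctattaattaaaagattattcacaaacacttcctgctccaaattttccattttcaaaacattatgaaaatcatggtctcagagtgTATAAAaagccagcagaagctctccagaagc

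The Retnla window held TTCACAAGAA, a match to the longer palindrome, from 145 to 136 bases before the start, and TATAAA from 30 to 25 bases before it. Of 32851 promoter windows of the same length, 5.85% held the palindrome with 4 spacer bases, 7.02% that with 3 and 12.4% held TATAAA on either strand. The Chil3 and Chil4 windows held TTCTTAGAA with the shorter spacer, and no match to the longer one. The Chil4 window also held TATAAA, from 31 to 26 bases before the start. The Chil3 and Chil4 windows were 72.4% identical when aligned, and those of Ear2 and Rnase2a 60.9%. Beside them stood 50.7% for Retnla and Chil3 and 52.1% for Retnla and Rnase2a. Transcripts of related genes may bind to each other's probes, but no transcript sequences were compared. The windows of Rnase2a and Ear2 held none of the 3 motifs. A match describes letters only and does not show a bound site.

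Values are log2 signals of the normalised array. A gene counted as dim when its mean over the 6 arrays lay below 4.335, the 30th percentile of all genes, and dim genes were left out of the tests. Of the 6 measured genes, Retnla, Arg1, Rnase2a and Tgm2 were brighter and were tested, among 15529 genes. Chil3, with a mean of 4.28, lay just under that level, and Chil4, with a mean of 2.91, well under it. Levels of different genes are not compared, because each probe set has its own response.

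The sorted cells carried the marks of macrophages in all subsets. All 12 macrophage markers were measured and above the dim level, and limma called none in any comparison. Adgre1, which encodes a surface antigen used to sort macrophages, had signals between 10.63 and 10.95. Cx3cr1 rose in CX3CR1high cells, by 3.59 against CX3CR1low cells (SE 0.41, adjusted p = 0.0163) and by 3.09 against CX3CR1int cells (adjusted p = 0.0421). Array medians lay between 4.84 and 4.94. Replicates 1 and 2 differed in Xist, transcribed from the inactive X chromosome of females, which was at 7.39 to 7.97 in replicates 1 and at 10.99 to 11.39 in replicates 2. A model with a term for the replicate number (the replicate block) was run beside the one without it. In it Cd163, a scavenger receptor gene, was lower in CX3CR1high than in CX3CR1low cells (-0.91, adjusted p = 0.0305). The number of arrays limits the precision of every value. The p-values rest on the spread within subsets, pooled over all 3, and on a variance prior taken over all genes. Without the replicate block this spread includes the difference between replicates 1 and 2. Of the 2 samples of a subset the labels say only that they came from independent litters.

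Retnla (probe set 17326069), the mark of the list with the largest difference, was lowest in CX3CR1high cells. Its signal was 8.68 and 9.40 in the CX3CR1high samples, 10.92 and 11.60 in the CX3CR1int samples, and 11.71 and 11.82 in the CX3CR1low samples. No subset overlapped another, but the higher CX3CR1int sample came close to the lower CX3CR1low sample. The subset means were 9.04 ± 0.51, 11.26 ± 0.48 and 11.77 ± 0.08 in CX3CR1high, CX3CR1int and CX3CR1low cells (SD, n = 2 each). Retnla was thus 6.61-fold lower in CX3CR1high than in CX3CR1low cells (log2 difference -2.73 ± 0.27, SE). Against CX3CR1int cells it was 4.66-fold lower in CX3CR1high cells (-2.22 ± 0.27, SE). CX3CR1int and CX3CR1low cells were neighbours in this order, with a difference of -0.51 ± 0.27 (SE) that was not called.

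Retnla was picked for this list because earlier results of these data showed its fall, so its values are given as a description, with no p. It was lower in CX3CR1high cells within each replicate. CX3CR1high minus CX3CR1low was -3.03 in replicate 1 and -2.42 in replicate 2, and CX3CR1high minus CX3CR1int was -2.24 and -2.20. Between CX3CR1int and CX3CR1low cells it was -0.79 and -0.22. In bulk samples, fewer cells that make a transcript and less of it per cell cannot be told apart.

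**Figure D1:**
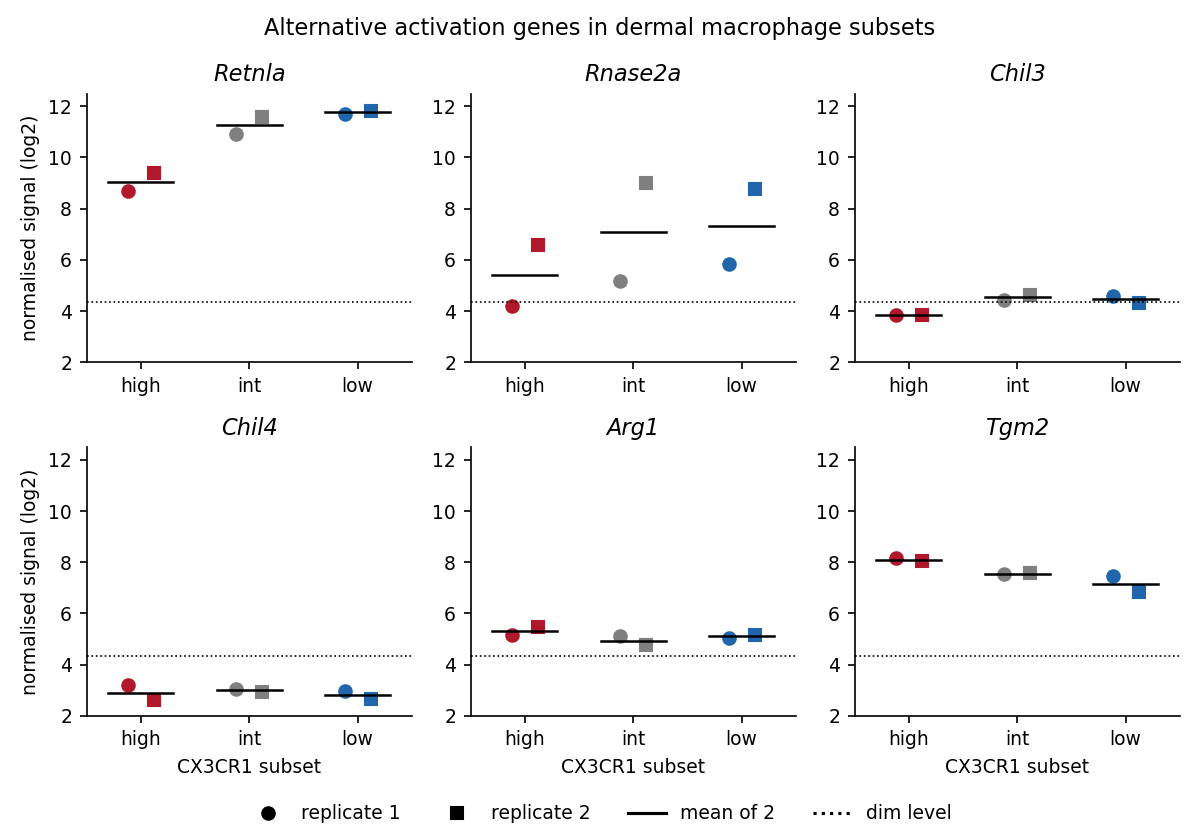
Normalised log2 signal of the 6 measured genes (vertical axes) in CX3CR1high, CX3CR1int and CX3CR1low cells; circles are replicates 1, squares replicates 2, bars the mean of 2 samples and the dotted line the level of 4.335 under which genes counted as dim. Retnla is lowest in both CX3CR1high samples (8.68 and 9.40), Rnase2a splits by replicate in every subset, and Chil4 is under the dotted line throughout.

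In the fit across all genes, 1 of the 4 members tested was called at an adjusted p below 0.05 between CX3CR1high and CX3CR1low cells, against 0.399% of all genes tested (0.213% called as higher and 0.187% as lower). That member was Retnla, and because it was chosen on this difference nothing is read from the count. Between CX3CR1high and CX3CR1int cells Retnla was again the 1 member called, against 0.142% of all genes tested (0.0773% higher and 0.0644% lower). Between CX3CR1int and CX3CR1low cells limma called 0 members, against 0.00644% of all genes tested. There 0 members had an unadjusted p below 0.05 by limma, beside 759 of all genes tested. Between CX3CR1high and CX3CR1low cells 2 of the 4 members had such a p, beside 1499 genes. Between CX3CR1high and CX3CR1int cells 2 of the 4 had it, beside 1226 genes. Retnla, chosen on its fall, was 1 of the 2 each time, so nothing is read from these counts. The comparisons share samples and are not independent of each other. The Retnla call against CX3CR1low cells ended without CX3CR1high replicate 1 (-2.37), CX3CR1low replicate 1 (-2.78) or CX3CR1low replicate 2 (-2.67). That against CX3CR1int cells ended when any single sample was left out, with differences of -2.58 to -1.86, and with the replicate block both calls held, against 0.303% of genes called between these subsets (0.142% higher, 0.161% lower).

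Without regard to the size of a difference, samples of CX3CR1high and CX3CR1low cells did not overlap for 3 of the 6 measured members, against 36.7% of all measured genes (20.1% higher, 16.6% lower). Tgm2 was the 1 member higher, and Retnla and Chil3 were lower. Between CX3CR1high and CX3CR1int cells 4 of 6 members did not overlap, against 35.5% of all measured genes (18.1% higher, 17.5% lower), with Tgm2 and Arg1 higher and Retnla and Chil3 lower. Between CX3CR1int and CX3CR1low cells it was 2 of 6, against 31.7% (17.4% higher, 14.3% lower), with Tgm2 higher and Retnla lower. With 2 samples a subset such separation is common, and the counts lie near those of all genes.

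**Figure D2:**
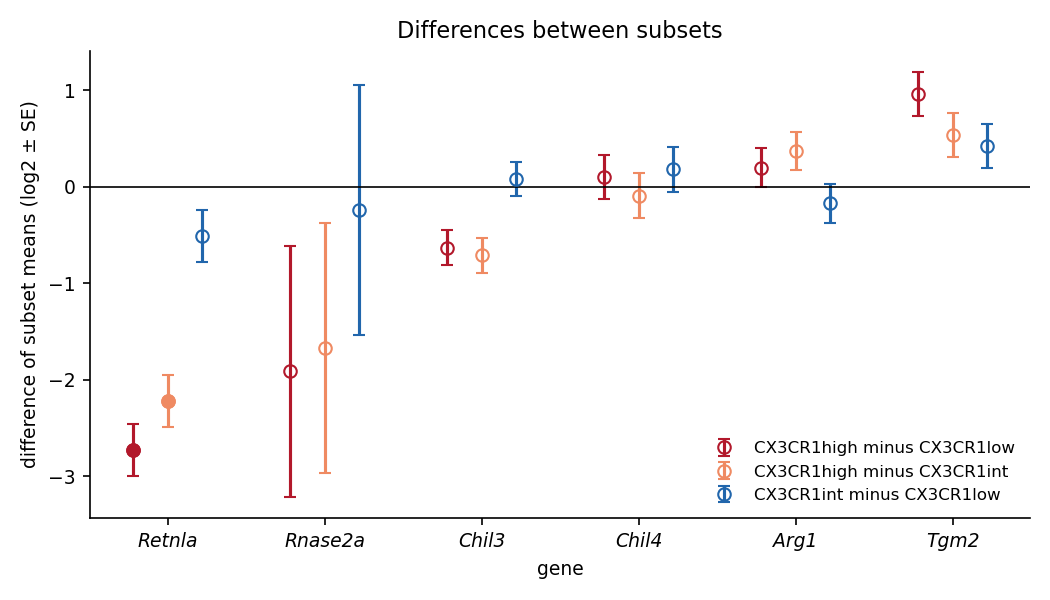
Log2 difference of subset means with its standard error (vertical axis) for each measured gene and comparison; filled points were called in the fit across all genes and open points were not. Retnla has the 2 filled points, at -2.73 and -2.22, and the error bars of Rnase2a, with an SE of 1.30, are the widest.

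Rnase2a (probe set 17306104), an eosinophil-associated ribonuclease gene, differed more between replicates than between subsets. Its signal was 4.21 and 6.60 in the CX3CR1high samples, 5.16 and 8.99 in the CX3CR1int samples, and 5.84 and 8.78 in the CX3CR1low samples. Replicate 2 was higher by 2.39 in CX3CR1high, 3.83 in CX3CR1int and 2.94 in CX3CR1low cells, and all 3 subsets overlapped. The difference between CX3CR1high and CX3CR1low cells was -1.91 ± 1.30 (SE) and was not called.

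Within a replicate, Rnase2a was lower in CX3CR1high cells on each occasion. CX3CR1high minus CX3CR1low was -1.63 in replicate 1 and -2.18 in replicate 2. CX3CR1high minus CX3CR1int was -0.95 and -2.39. The CX3CR1high signal of replicate 1, 4.21, lay below the dim level of 4.335, so the replicate 1 differences from it are uncertain in size. CX3CR1int minus CX3CR1low was -0.68 and 0.21, with no common direction. With the replicate block the SE of these differences fell to 0.30, and Rnase2a was called between CX3CR1high and CX3CR1low cells. This made 2 members called, against 0.992% of all genes tested (0.489% higher, 0.502% lower). The pairing behind the block was taken from these same values, and the block model left 2 residual degrees of freedom. Rnase2a ranked 2 among 15529 genes by its smallest rise from replicate 1 to replicate 2, so nothing is read from this call.

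Among the 15529 genes tested, only Xist and Rnase2a were higher by at least 2 log2 units in replicate 2 of all 3 subsets. The 3 genes lower by as much were Eif2s3y, Kdm5d and Uty, which lie on the Y chromosome. These 5 genes were named after their values were seen. The samples that are high for Rnase2a are thus those with the higher Xist signal, while the labels do not say what else the samples of 1 replicate number share, and this was not tested. Of 7 eosinophil markers measured, of 8 listed, Epx, Prg2, Prg3, Il5ra and Gata1 were dim. Siglecf (4.45 to 4.83) and Ccr3 (3.75 to 4.98) passed the filter, and neither was called in any comparison. The summed linear signal of the 7 was 125 to 127 in CX3CR1high, 129 in both CX3CR1int and 120 to 135 in CX3CR1low samples. The part of such cells in the values of Rnase2a was not tested.

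**Figure D3:**
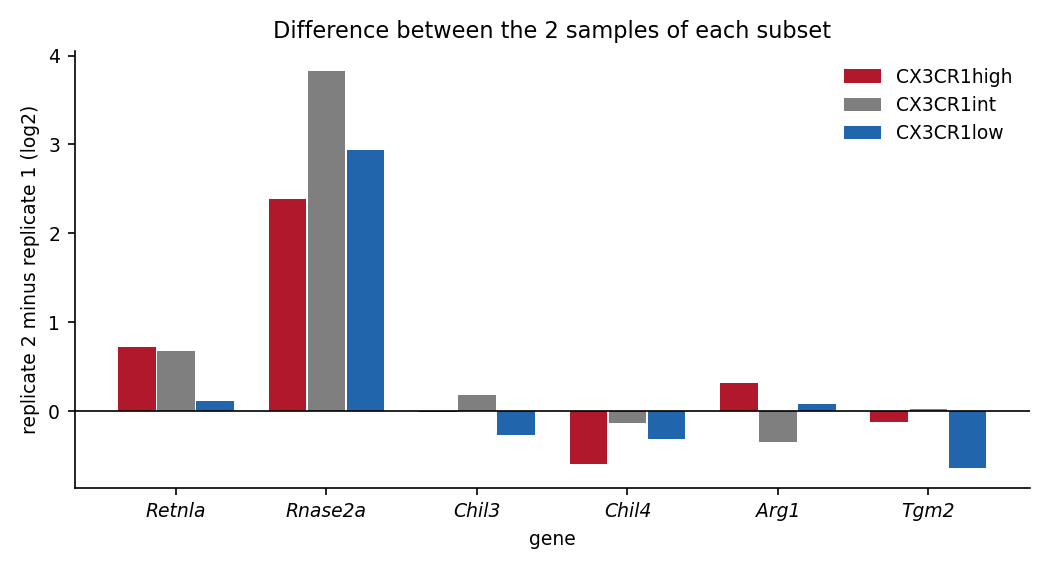
Replicate 2 minus replicate 1 on the log2 scale (vertical axis) for each measured gene, with a bar for each of the CX3CR1high, CX3CR1int and CX3CR1low subsets. Rnase2a has the tallest bars, 2.39, 3.83 and 2.94, and the other genes stay between -0.64 and 0.72.

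The chitinase-like genes were dim. Chil3 (probe set 17408897) was at 3.84 and 3.83 in the CX3CR1high samples, 4.45 and 4.63 in the CX3CR1int samples, and 4.60 and 4.33 in the CX3CR1low samples. Both CX3CR1high samples were below all others, while CX3CR1int and CX3CR1low samples overlapped. In the fit without the filter on dim genes Chil3 differed by -0.63 ± 0.18 between CX3CR1high and CX3CR1low cells and by -0.71 ± 0.18 between CX3CR1high and CX3CR1int cells (SE). Neither difference was called there, and no fold is given because the CX3CR1high mean of 3.84 lay below the dim level.

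Chil4 (probe set 17408911) was under the dim level on every array, with 3.21 and 2.61 in CX3CR1high, 3.06 and 2.93 in CX3CR1int, and 2.97 and 2.66 in CX3CR1low samples. The 3 subsets overlapped, and no order can be read from such signals.

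Arg1 (probe set 17239845), the arginase gene, had signals not far above the dim level and no called difference between subsets. It was at 5.14 and 5.46 in the CX3CR1high samples, 5.11 and 4.76 in the CX3CR1int samples, and 5.06 and 5.14 in the CX3CR1low samples. The difference between CX3CR1high and CX3CR1low cells was 0.20 ± 0.20 (SE), with overlapping samples. Against CX3CR1int cells it was 0.37 ± 0.20 (SE), with samples that did not overlap, and neither difference was called.

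Tgm2 (probe set 17393789), the transglutaminase gene, ran against Retnla. Its signal was 8.16 and 8.04 in the CX3CR1high samples, 7.55 and 7.57 in the CX3CR1int samples, and 7.46 and 6.82 in the CX3CR1low samples. The CX3CR1high samples were the highest, and no subset overlapped another. The difference was 0.96 ± 0.23 between CX3CR1high and CX3CR1low cells, 0.54 ± 0.23 between CX3CR1high and CX3CR1int cells, and 0.42 ± 0.23 between CX3CR1int and CX3CR1low cells (SE). None was called, with or without the replicate block, and within replicates CX3CR1high minus CX3CR1low was 0.70 and 1.22.

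Relatives of the members showed which other genes of their families could be seen. Of the resistin family, Retn, the resistin gene, alone passed the filter and differed by 0.13 between CX3CR1high and CX3CR1low cells (adjusted p = 0.874), while Retnlb and Retnlg were dim. Of 7 chitinase family genes 4 were tested and none was called by limma, 2 having an unadjusted p below 0.05. Chit1, the macrophage chitinase gene, was at 4.39 and 4.11 in CX3CR1high, 4.45 and 4.39 in CX3CR1int, and 5.0 and 5.29 in CX3CR1low samples. CX3CR1high and CX3CR1low samples did not overlap, but the gene was not called (adjusted p = 0.111), and no size is given because the CX3CR1high mean lay below the dim level. Of 11 other ribonuclease genes of the RNase A family that were measured, 10 were dim. Rnase6, an antimicrobial ribonuclease gene, differed by -0.53 (adjusted p = 0.664). Of 7 other transglutaminase genes tested none was called, 1 having an unadjusted p below 0.05. F13a1, the coagulation factor XIII chain typical of resident macrophages and also on the monocyte list below, differed by -0.56 (adjusted p = 0.181).

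The receptor and signalling genes of interleukin 4 and interleukin 13 did not separate the subsets by the test. Il4ra, the shared receptor chain, was at 9.44 and 9.23 in CX3CR1high, 9.24 and 9.38 in CX3CR1int, and 9.65 and 9.12 in CX3CR1low samples. The samples overlapped, and the difference between CX3CR1high and CX3CR1low cells was -0.05 ± 0.20 (SE, adjusted p = 0.966). Stat6, the transcription factor of the pathway, differed by 0.12 ± 0.17 (SE, adjusted p = 0.892).

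Of 17 tested genes of this list, 10 were higher and 7 lower in CX3CR1high against CX3CR1low cells. The median was 0.11, beside 0.01 over all genes tested, and limma called 0, with 5 at an unadjusted p below 0.05. Those with the smallest p were Klf4, a partner of Stat6, at -0.77 (adjusted p = 0.113), and Jak2, a cytokine receptor kinase, at 0.78 (adjusted p = 0.158). Nor was any gene of the list called in the other comparisons or with the replicate block.

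Of 6 genes of type 2 cytokines, Tslp fell in CX3CR1high cells. Tslp encodes a cytokine best known from keratinocytes that promotes type 2 immunity. Its signal was 6.64 and 6.56 in CX3CR1high, 7.85 and 7.70 in CX3CR1int, and 8.12 and 7.92 in CX3CR1low samples. Both CX3CR1high samples lay below all others, and the difference from CX3CR1low cells was -1.42 ± 0.18 (SE, adjusted p = 0.018). Against CX3CR1int cells it was -1.18, which did not pass (adjusted p = 0.0656) unless the replicate block was in the model (adjusted p = 0.0363). The call against CX3CR1low cells ended without CX3CR1high replicate 1 (-1.46) or 2 (-1.38) and without CX3CR1low replicate 1 (-1.32) or 2 (-1.52). The other 5 were not called, and the list had a median of -0.24, beside 0.01 over all genes tested.

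Other targets of alternative activation moved in both directions. Of 21 tested, Clec10a fell and Ccl22 rose between CX3CR1high and CX3CR1low cells, and 19 were not called. The median of the 21 was -0.02, beside 0.01 over all genes tested, with 10 higher and 11 lower. Clec10a, a galactose-binding lectin, was at 5.96 and 6.58 in CX3CR1high, 7.63 and 8.0 in CX3CR1int, and 8.04 and 7.97 in CX3CR1low samples. It was 3.33-fold lower in CX3CR1high than in CX3CR1low cells (-1.74 ± 0.24, SE, adjusted p = 0.0317). Ccl22, a chemokine that draws T cells, was at 8.57 and 8.12 in CX3CR1high, 6.90 and 6.93 in CX3CR1int, and 5.94 and 6.90 in CX3CR1low samples. It was 3.8-fold higher in CX3CR1high than in CX3CR1low cells (1.93 ± 0.30, SE, adjusted p = 0.0428). For either gene both CX3CR1high samples lay apart from the other 4.

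Mrc1, the mannose receptor gene and the most used surface mark of alternative activation, differed by -0.10 ± 0.13 (SE, adjusted p = 0.869) between CX3CR1high and CX3CR1low cells. Mgl2, a close relative of Clec10a named after its values were seen, differed by -0.98, which did not pass (adjusted p = 0.0635) unless the replicate block was in the model (adjusted p = 0.0419). With that block 2 of the 21 were lower and 1 higher. The Clec10a call ended when any of the 6 samples was left out (-2.05 to -1.43). That of Ccl22 ended without CX3CR1high replicate 1 (1.70) or 2 (2.15), either CX3CR1int replicate (1.93) or CX3CR1low replicate 1 (1.45), and held without CX3CR1low replicate 2 (2.41). Between CX3CR1high and CX3CR1int cells Clec10a differed by -1.55, which did not pass (adjusted p = 0.0732) except with the block (adjusted p = 0.0261). No other target was called there or between CX3CR1int and CX3CR1low cells.

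**Figure D4:**
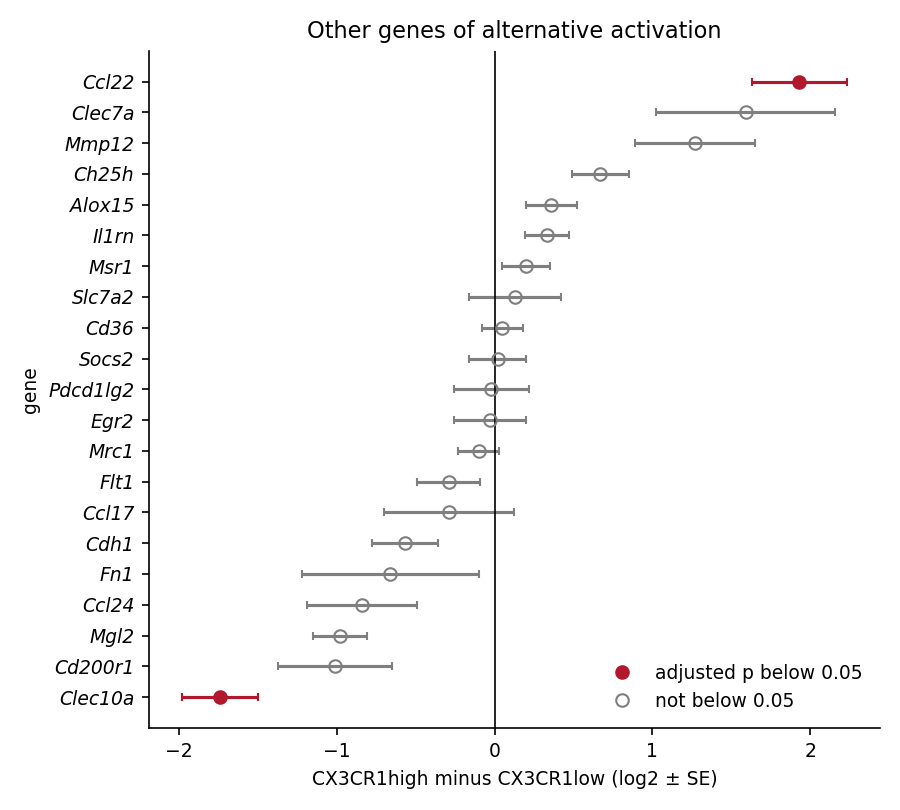
CX3CR1high minus CX3CR1low difference on the log2 scale with its standard error (horizontal axis) for the 21 tested targets of alternative activation other than the members, ordered by the difference; filled points passed an adjusted p of 0.05. Ccl22 at 1.93 and Clec10a at -1.74 are the filled points at either end, and Mrc1 lies near 0 at -0.10.

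Genes of arginine and polyamine handling, which use the products of Arg1 or compete for its substrate, showed no called gene among 17 tested, 1 having an unadjusted p below 0.05 between CX3CR1high and CX3CR1low cells. Nos2, the inducible nitric oxide synthase that competes with Arg1 for arginine, was at 4.85 and 4.98 in CX3CR1high, 5.02 and 4.72 in CX3CR1int, and 4.83 and 4.71 in CX3CR1low samples. These samples overlapped, with a difference of 0.15 ± 0.18 (SE, adjusted p = 0.866). Slc7a7, a transporter of cationic amino acids, differed by 0.39 (adjusted p = 0.495), and Oaz1, which restrains polyamine synthesis, by -0.13 (adjusted p = 0.888).

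Classical activation, the inflammatory state usually set against the alternative one, held 1 called gene among 17 tested. Il1b, the gene of interleukin 1 beta, rose by 0.88 ± 0.13 in CX3CR1high against CX3CR1low cells (SE, adjusted p = 0.0392). It was at 11.80 and 11.74 in CX3CR1high, 11.27 and 11.11 in CX3CR1int, and 10.76 and 11.03 in CX3CR1low samples. Of the 17 differences 13 were positive and 4 negative, with a median of 0.29, and 5 had an unadjusted p below 0.05 by limma. With the replicate block 4 were called, all higher: Il1b, the prostaglandin synthase gene Ptgs2 and the chemokine genes Cxcl10 and Ccl5, of which Ptgs2 and Ccl5 were named after their values were seen. The Il1b call ended when any of the 6 samples was left out (0.74 to 1.01).

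Profiles most like that of Retnla were looked for among 265 other tested genes whose subset means spanned at least 1 log2 unit. Likeness was Pearson's r over the 6 samples, which fall into 3 subsets, so that any gene low in both CX3CR1high samples scores highly. Of these genes 49 had an r of at least 0.9 and 45 an r of -0.9 or less. The 6 closest were Clec10a (0.994), Anpep (0.994), Adgrg1 (0.991), Gstp1 (0.988), Pros1 (0.987) and Cfp (0.984). Anpep encodes an aminopeptidase, Adgrg1 an adhesion receptor, Gstp1 a glutathione transferase, Pros1 a plasma protein that links dying cells to their phagocytes, and Cfp the complement protein properdin. Anpep, for example, was at 8.65 and 9.31 in CX3CR1high, 10.10 and 10.43 in CX3CR1int, and 10.67 and 10.68 in CX3CR1low samples. In the CX3CR1high subset all 6 were lower in replicate 1 than in replicate 2, as Retnla was. Their choice by r over these same samples favours this, so nothing is read from it.

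**Figure D5:**
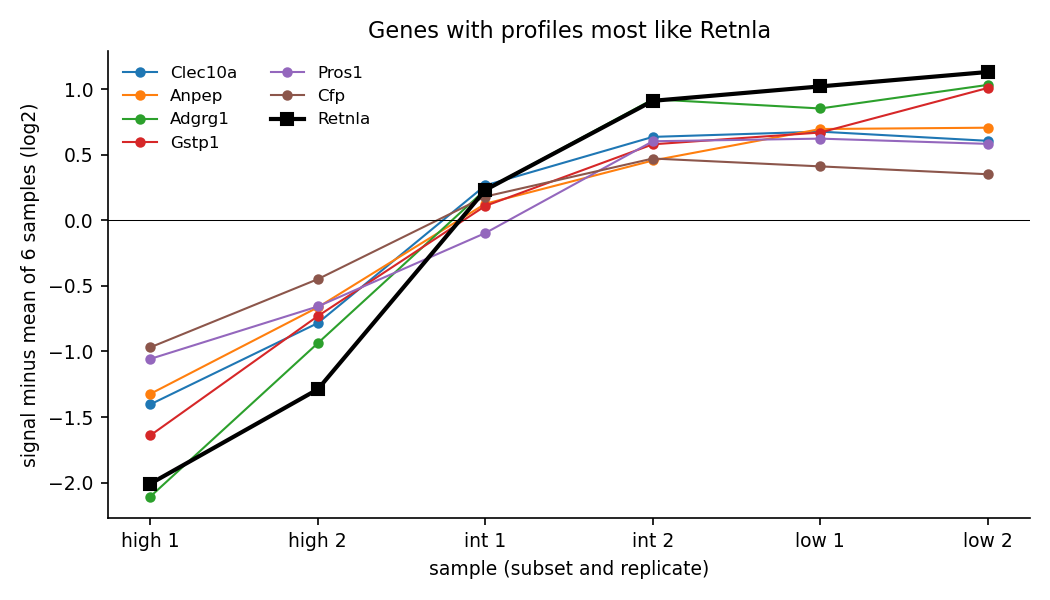
Signal minus the mean of 6 samples on the log2 scale (vertical axis) in each CX3CR1high, CX3CR1int and CX3CR1low sample for Retnla (black squares) and the 6 genes of most similar profile; lines only link the points of a gene. All 7 are lowest in CX3CR1high replicate 1, and the r with Retnla runs from 0.984 to 0.994.

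For Rnase2a, the closest profiles were those of Iigp1 (0.961), an interferon-induced GTPase gene, the chemokine gene Ccl6 (0.947) and Mia (0.920). Ccl6 was at 6.73 and 8.08 in CX3CR1high, 8.04 and 9.66 in CX3CR1int, and 8.44 and 9.59 in CX3CR1low samples, so that it too was higher in replicate 2 of each subset.

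Some markers of mast cells and keratinocytes were lower in CX3CR1high than in CX3CR1low samples, as Retnla was. Of 8 mast cell markers 6 were tested and 3 fell between CX3CR1high and CX3CR1low cells, the protease genes Cpa3 (adjusted p = 0.00512), Mcpt4 (-2.26, adjusted p = 0.0168) and Cma1 (-1.87, adjusted p = 0.013), while Ms4a2 and Mrgprb2 were dim. All 6 tested had an unadjusted p below 0.05 by limma there. Both CX3CR1high samples of Cpa3 (3.82 and 4.32) lay below the dim level. Cpa3 passed the filter through the other subsets, so no size is given for it. Against CX3CR1int cells Cpa3 fell (adjusted p = 0.0405), and Mcpt4 (-1.55) passed in the model with the replicate block (adjusted p = 0.0254) but not without it (adjusted p = 0.0956). The summed linear signal of the 8 was 183 to 199 in CX3CR1high, 401 to 426 in CX3CR1int and 549 to 751 in CX3CR1low samples. Of 11 keratinocyte markers tested Krt10 fell (-1.46, adjusted p = 0.0439), and Krt17, named after its values were seen, passed with the block (-1.15, adjusted p = 0.036, and 0.392 without it). Between CX3CR1high and CX3CR1low cells 6 of the 11 had an unadjusted p below 0.05 by limma. The keratinocyte sum was 1283 to 1315 in CX3CR1high, 1463 to 1492 in CX3CR1int and 1924 to 2667 in CX3CR1low samples. Of 10 fibroblast markers limma called none, 7 having an unadjusted p below 0.05, and in the model with the replicate block 5 were lower. Their sum was 2141 to 2177 in CX3CR1high, 2932 to 3045 in CX3CR1int and 3560 to 5940 in CX3CR1low samples. The part of these cells in the differences of Retnla, Clec10a and Tslp was not tested.

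Monocytes, which can also make Chil3, fat cells and endothelium were set beside the members too. Of 6 monocyte markers tested Ly6c2, at 3.36 and 4.92 in CX3CR1high and 7.35 and 7.90 in CX3CR1int samples, fell between these subsets (adjusted p = 0.0421). The CX3CR1high mean of Ly6c2, 4.14, lay below the dim level, and it passed the filter through the other subsets. Between CX3CR1high and CX3CR1low cells Ly6c2 and Gda passed only with the block (adjusted p = 0.00484 for Ly6c2 and 0.0337 for Gda). Of the 6, 4 were lower and 2 higher there, with 4 at an unadjusted p below 0.05 by limma. The 2 higher, named after their values were seen, were Ccr2 (1.24, adjusted p = 0.401) and Plac8 (0.17, adjusted p = 0.961). The sum of the 7 measured, Chil3 among them, was 2271 to 2521 in CX3CR1high, 3223 to 4099 in CX3CR1int and 3557 to 3760 in CX3CR1low samples. F13a1, at 10.70 to 11.45, was the brightest of the 7 and weighed most in the sum. As this gene is typical of resident macrophages too, the sum is not a measure of monocytes alone. Of 6 adipocyte markers Adipoq, Lep and Cidec were dim, while Plin4 (5.51 to 6.12), Plin1 (4.82 to 5.59) and Retn (4.37 to 4.65) passed the filter with no call, and the sum of the 6 was 169 to 187, 150 to 164 and 147 to 156 in CX3CR1high, CX3CR1int and CX3CR1low samples. Endothelium also makes Tgm2, and the 8 endothelial markers measured summed to 229 to 268 in CX3CR1high, 246 to 301 in CX3CR1int and 325 to 342 in CX3CR1low samples. None of the 5 tested was called by limma, 1 having an unadjusted p below 0.05 between CX3CR1high and CX3CR1low cells, and their part in the values of Tgm2 was not tested. No neutrophil or lymphocyte marker was called in any comparison. Neutrophil sums were 281 to 309, 293 to 408 and 308 to 370, and lymphocyte sums 889 to 1008, 895 to 1057 and 837 to 930, in CX3CR1high, CX3CR1int and CX3CR1low samples. Il7r and Cd4 weighed most in the lymphocyte sum. Between CX3CR1high and CX3CR1low cells they differed in opposite directions by limma, Il7r by 0.77 (adjusted p = 0.372) and Cd4 by -1.05 (adjusted p = 0.173). Similar sums therefore do not show equal numbers of lymphocytes.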

How the data were processed

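The deposited table holds log2 signals, used as given. The submitters' processing notes name RMA and version 1.4 of Affymetrix Expression Console as the way the authors made them. RNA of the sorted cells was amplified before labelling, per the labels' protocols. Of 34390 probe sets, 23521 carried 1 gene symbol, 1814 several and 9055 none. Only the first kind was used, with the brightest for each of 22180 genes. Genes below the 30th percentile of the mean were left out, and 15529 were tested. The genome build behind the probe annotation is not given in the sources used here.

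The test was limma 3.58.1 in R 4.3.3, fitting the 3 subset means to all 6 samples at once, an intensity trend in the variance prior, and p-values adjusted by Benjamini-Hochberg over the 15529 genes. A gene was called at an adjusted p below 0.05, two-sided. Residual degrees of freedom were 3, and the prior added 5.77. The fit was tested on simulated data. Across genes, deviations of same-numbered samples correlated at 0.136 (CX3CR1high and CX3CR1low), 0.178 (CX3CR1high and CX3CR1int) and 0.146 (CX3CR1int and CX3CR1low). The replicate number was thus taken to pair samples, on the basis of the values, and the replicate block is given where it changes the call of a member or of a comparison the text gives for a list.

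The members, gene lists and tests were chosen with earlier results of these data known. Named were the members, 7 fixed genes, called genes of the lists, the 2 smallest p-values per list and the genes most like Retnla or Rnase2a. Alternatives were the block, other filters, probe set rules, variance prior, normalization, the 2 compared subsets alone and leaving out each sample.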

Additional observations from a re-analysis of the deposited data

How the results depend on the processing

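Retnla was lower in CX3CR1high than in CX3CR1low cells under all 15 settings run, the reported one included, with differences of -3.09 to -2.37, and was called in 12 of them. Against CX3CR1int cells it was lower by -2.58 to -1.86 and called in 5 of the 15. Retnla was chosen on its fall in these data, and the settings reuse the same arrays. Its direction and these counts of settings are therefore a description, and nothing is read from them. Tgm2 was higher in CX3CR1high than in CX3CR1low cells by 0.64 to 1.28 and called in none. Rnase2a ranged from -3.38 to -0.44 and was called only with the replicate block. Chil3 and Chil4 entered only fits without the filter at 4.335, Chil3 in 2 settings and Chil4 in 1. At most 2 members were called in any comparison.

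The number of genes called between CX3CR1high and CX3CR1low cells was 62. It was 154 with the replicate block (2 members called), 26 without the filter on dim genes, 18 with every probe set on its own, 39 with only the 2 subsets compared, and 0 to 39 with a sample left out (0 to 1 member). The 0, without CX3CR1high replicate 1, stood beside 998 genes at an unadjusted p below 0.05 by limma. Between CX3CR1high and CX3CR1int cells 22 became 47 with the block, 0 without the filter or with every probe set on its own, 4 without the intensity trend, 8 after quantile normalization again, 14 with the 2 subsets alone and 0 to 17 with a sample left out. There 0 members were called without the filter, with every probe set, without the trend, with the 2 subsets alone, and with any sample left out (0 to 0). Without the filter 1573 genes, and with every probe set 1881, had an unadjusted p below 0.05. Between CX3CR1int and CX3CR1low cells the 1 call became 0 with the block, without the filter, with every probe set, without the trend, after quantile normalization and with the 2 subsets alone, where 717 to 1298 genes had an unadjusted p below 0.05, and 0 to 0 with a sample left out. Counts of calls depend on the number of features and of samples in a fit, and the causes of these changes were not tested. The replicate block ended the single call between CX3CR1int and CX3CR1low cells and, among the members, changed only that of Rnase2a.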
